A study of Mus musculus with 16 samples.

Results

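RNA of staggerer mice was set against RNA of control mice in the ventrobasal nucleus of the thalamus (VB) on 8 microarrays, out of 16 in the series. The other 8 arrays compared the same genotypes in somatosensory cortex. They serve here only for the test of the difference between the tissues, for a look at the direction of the columns and for counts of like signs. All mice were of the C57BL/6 strain and were taken at postnatal days 5 to 6. The labels do not say whether controls were wild-type or heterozygous, nor how many pups gave each RNA. Each of 4 litters supplied staggerer and control RNA to 2 arrays. Staggerer RNA was in Cy5 and control RNA in Cy3 on 1 array of the pair, and the dyes were swapped on the other. The litter is the replicate, so n is at most 4, and the number of arrays limits the precision.

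Staggerer is a deletion in Rora, which encodes the nuclear receptor RORα. RORα binds DNA as a single molecule at the core motif AGGTCA next to an AT-rich stretch, and it activates its targets. It is known for its part in the maturation of cerebellar Purkinje cells, and it is also made by thalamic neurons. Neurons of the VB relay touch from the whiskers to layer 4 of the somatosensory cortex, where their axons settle in barrels during the first postnatal week. In that week they take up serotonin through the transporter Slc6a4 and package it with Slc18a2, without making it themselves.

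The deposited values are log ratios of the channels, and neither the numerator nor the log base is stated. They were taken as log2. The columns could hold Cy5 over Cy3 on every array, or could already have been turned so that all run from 1 genotype to the other. Both readings are given. Read as already turned, the ratio of a litter is the mean of its swapped arrays. Whether staggerer or control is then the numerator is unknown, so these ratios are called positive or negative only. Read as Cy5 over Cy3, it is the staggerer-in-Cy5 value minus the control-in-Cy5 value, divided by 2, and a positive ratio means staggerer above control. At most 1 of these quantities measures genotype, and the other then measures what the dyes do to a probe.

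Each VB array held 17711 to 22207 values of 24107 probes, with an interquartile range of 0.357 to 0.388. On the arrays with staggerer RNA in Cy5, 113 to 152 values lay below -1 and 4 to 81 above 1. On those with control RNA in Cy5, 47 to 132 lay below -1 and 349 to 422 above 1. Arrays of like dye assignment correlated at r = 0.345 to 0.516 with staggerer RNA in Cy5 and at 0.454 to 0.597 with control RNA in Cy5. Arrays of opposite assignment correlated at -0.466 to -0.274 within a litter and at -0.531 to -0.29 between litters. Correlations below 0 are what Cy5 over Cy3 columns give for a genotype effect, and what turned columns give for a dye effect of the probes, so they do not settle the direction. Channel intensities were not used here, so the identity of the dissected tissue could not be checked against the level of its markers.

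Litters offer a further look at the direction, since a litter's own departure from the mean should carry the same sign on both of its arrays if the columns were turned, and opposite signs if not. For the 100 features with the widest spread between litters, these departures correlated at 0.237, 0.149, 0.254 and 0.169 in litters 1 to 4 of the VB. For the 500 widest they correlated at 0.0866 to 0.147. Over all 8694 features with complete values the correlations were -0.00424 to 0.0595. In cortex they were 0.072 to 0.593 for the 100 widest features. Lists that litters might be thought to differ in were short. With 5 sex-linked genes the VB correlation over all litters was -0.266, with 5 blood cell genes -0.131, with 8 choroid plexus, ependyma and meninges genes -0.0856 and with 14 activity-regulated genes 0.0485. In cortex these lists, of 3 to 13 genes, gave -0.721, 0.0531, 0.0212 and 0.213. The wide features were above 0 in both tissues, nothing was read from lists this short, and a dye effect that differs between litters was not tested.

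**Figure D1:**
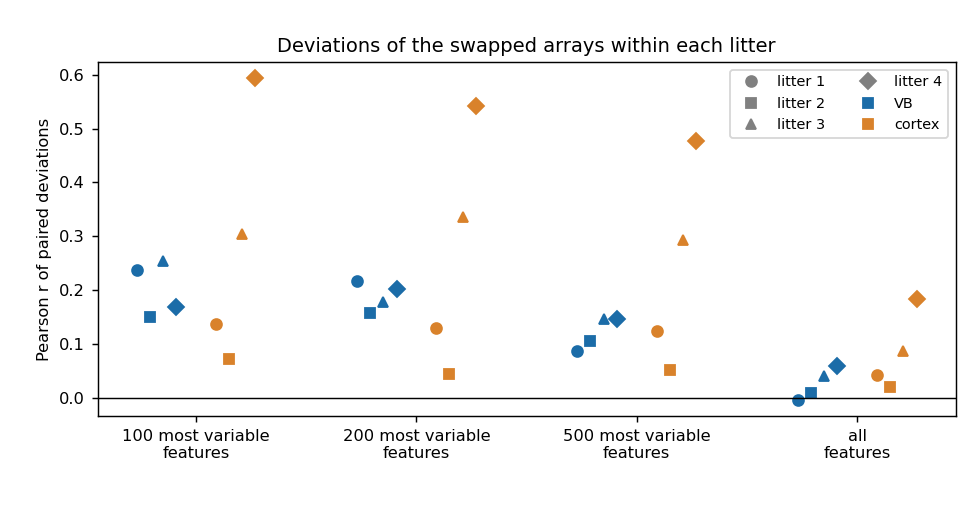
Pearson correlation, across features, between the departures of the swapped arrays of a litter from the mean of their dye assignment, for VB (blue) and cortex (orange); marker shapes are litters. All 4 VB litters are above 0 for the 100, 200 and 500 features with the widest spread, and lie between -0.00424 and 0.0595 over all features.

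In all, 16066 features were tested, 13407 of them gene symbols and the others probes without a symbol. A feature was called by limma where its p, adjusted by Benjamini and Hochberg across the whole table, was under 0.05. On this rule the turned reading called 50 features (0.311%), 37 positive (0.23%) and 13 negative (0.0809%). The Cy5 over Cy3 reading called 2784 (17.3%), 1120 with staggerer above control (6.97%) and 1664 with staggerer below control (10.4%). The readings shared 40 features, which is 80% of the turned calls and 1.44% of the Cy5 over Cy3 calls. Litters of 1 feature spread by a median SD of 0.133 in the turned reading and 0.132 in the other, on the log2 scale. Fewer cells of a type and less RNA per cell cannot be told apart in these dissected samples.

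**Figure D2:**
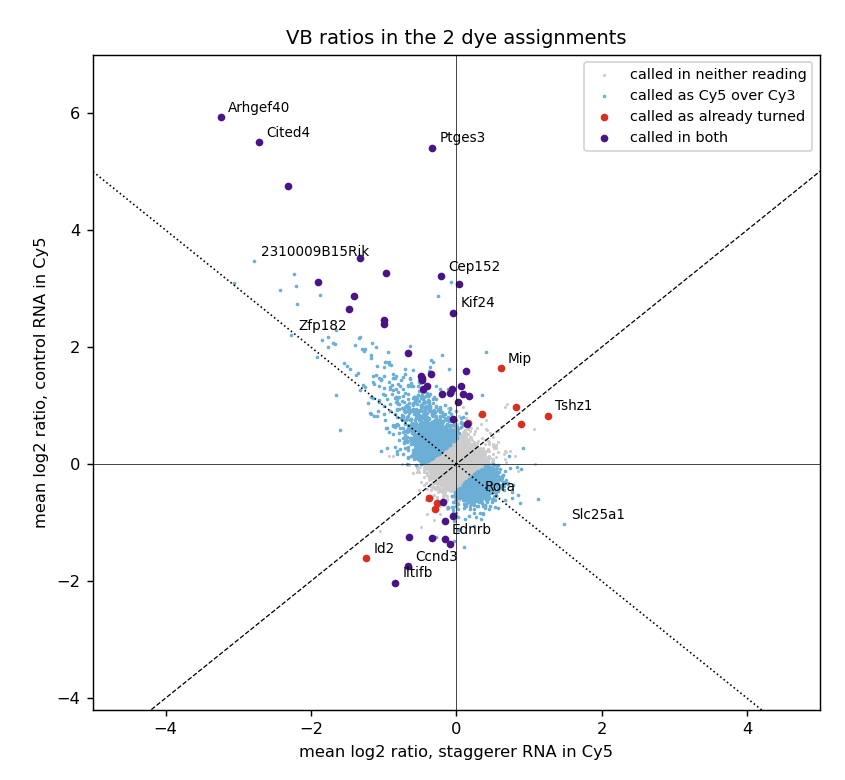
Each point is a feature, with its mean log2 ratio over the arrays with staggerer RNA in Cy5 (x axis) against that over the arrays with control RNA in Cy5 (y axis); the dashed line marks equal values, the dotted line equal values of opposite sign. Cited4, at -2.72 and 5.50, and Arhgef40, at -3.24 and 5.93, lie far to the upper left, and Id2, at -1.24 and -1.61, lies near the dashed line.

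Rora itself was read by 1 probe, whose place relative to the deletion is not known, so it does not check the labels. Its log2 ratios were 0.05, 0.18, 0.23 and 0.70 with staggerer RNA in Cy5, against -0.45, -0.69, -0.39 and -0.69 with control RNA in Cy5. The assignments did not overlap, and they had opposite signs in every litter. Read as Cy5 over Cy3, staggerer was above control by 0.42 ± 0.20 (SD, n = 4; limma adjusted p = 0.0047). The call held whichever litter was left out, and was lost with the arrays of staggerer RNA in Cy5 alone. Read as turned, the ratio was -0.13 ± 0.12 (adjusted p = 0.555) and was not called. Of the 20 tested genes nearest to Rora on each side of it on chromosome 9, by RefSeq order, 0 of 40 were called by limma in the turned reading, and 6 in the Cy5 over Cy3 reading (15%, against 17.3% of all features). At an unadjusted p under 0.05 there were 8 in the turned reading (20%, against 10.2% of all features) and 13 in the other (32.5% both of them and of all features).

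Promoters were searched for the core motif AGGTCA, on both strands (TGACCT on the other), in the window of 250 bases before to 50 after each gene's start in RefSeq (GRCm38.p6). A promoter was found for 36 of the 42 named turned calls. The motif was in 2 of the 10 promoters of negative calls, those of Ccnd3 and Iltifb, and in 1 of 26 of positive calls, that of Uhrf2. Among genes tested in VB with a promoter in the table, the share was 16.3% of 10784, and among all genes it was 18.1%. In the Cy5 over Cy3 reading, 17.5% of 804 promoters of positive calls and 18.6% of 1094 of negative calls held it. The longer TAGGTCA was in 0 of the 10 negative and 0 of the 26 positive turned calls, against 2.44% of genes tested in VB. In the Cy5 over Cy3 reading it was in 2.61% of positive and 2.65% of negative calls. The 3 promoters are shown because they are the ones among the turned calls with the core AGGTCA, which is in capitals. They lie at chr17:47504801-47505100 on the plus strand, chr10:118294989-118295288 on the minus strand and chr19:30030263-30030562 on the plus strand, and all hold it as TGACCT. Ccnd3 has a further annotated start without the motif.
Ccnd3: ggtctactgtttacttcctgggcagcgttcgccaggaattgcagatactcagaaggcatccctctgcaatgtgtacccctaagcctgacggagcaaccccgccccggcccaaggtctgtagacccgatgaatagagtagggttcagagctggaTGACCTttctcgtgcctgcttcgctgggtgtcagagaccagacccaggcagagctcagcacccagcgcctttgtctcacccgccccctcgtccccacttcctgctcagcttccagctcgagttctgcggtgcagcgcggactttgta
Iltifb: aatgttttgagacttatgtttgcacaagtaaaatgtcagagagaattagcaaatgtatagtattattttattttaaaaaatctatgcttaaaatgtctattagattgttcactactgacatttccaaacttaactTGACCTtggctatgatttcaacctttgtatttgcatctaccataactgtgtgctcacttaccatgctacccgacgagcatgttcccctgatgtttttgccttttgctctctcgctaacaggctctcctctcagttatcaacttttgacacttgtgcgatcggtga
Uhrf2: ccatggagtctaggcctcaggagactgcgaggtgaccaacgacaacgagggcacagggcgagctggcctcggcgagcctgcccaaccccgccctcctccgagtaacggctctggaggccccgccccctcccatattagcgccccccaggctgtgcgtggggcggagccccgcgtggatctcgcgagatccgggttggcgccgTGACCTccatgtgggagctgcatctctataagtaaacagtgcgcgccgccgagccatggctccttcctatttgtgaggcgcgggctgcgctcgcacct

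Turned reading, negative ratios. All 13 negative calls had a negative mean in both dye assignments, and 11 of them have a symbol. They include the astrocyte genes Gja1 and Ednrb, the calretinin gene Calb2, the inhibitor of DNA binding Id2 and the growth genes Ccnd3 and Btg1. Across all features 32.5% had like signs in both assignments. A call on the mean of the assignments itself favours like signs, so nothing was read from this. With staggerer RNA in Cy5, Id2, Iltifb, Ccnd3, Gja1, Ednrb, Ado, Btg1 and Sat1 had single positive arrays. With those arrays alone, Gja1, Ednrb, Calb2, Ado, Btg1, Sat1, Rnf182 and Lmtk2 were not called.

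Id2, whose protein keeps helix-loop-helix factors off DNA, was the widest of them together with Iltifb. Its arrays with staggerer RNA in Cy5 gave -1.86, -2.10 and 0.24 in litters 1 to 3, and those with control RNA in Cy5 gave -1.76, -1.90 and -1.19, with no pair in litter 4. The mean was -1.43 ± 0.83 (SD, n = 3; limma adjusted p = 0.0454), and litters 1 and 2 gave nearly equal values on both arrays. Iltifb, a cytokine gene related to interleukin 22, gave -1.50, -1.60, -0.40 and 0.14 with staggerer RNA in Cy5, and -2.12, -2.56, -1.05 and -2.38 with control RNA in Cy5. Its mean was -1.43 ± 0.62 (n = 4; adjusted p = 0.0102). Ccnd3, which encodes the cell cycle protein cyclin D3, gave -1.21, -1.15, -0.54 and 0.23 with staggerer RNA in Cy5, and -2.01, -2.27, -0.87 and -1.85 with control RNA in Cy5, for a mean of -1.21 ± 0.52 (adjusted p = 0.0102). In all 3 genes litters 1 and 2 were the most negative with staggerer RNA in Cy5, and litters 3 or 4 were near or above 0 there. Without litter 1, neither Iltifb nor Ccnd3 was called, and robust eBayes ended the calls of all 3.

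Gja1 encodes connexin 43, the main gap junction protein of astrocytes. Its ratios were -0.20, -0.30, -0.27 and 0.15 with staggerer RNA in Cy5, and -0.64, -1.04, -0.95 and -1.30 with control RNA in Cy5. The turned mean was -0.57 ± 0.11 (n = 4; limma adjusted p = 0.00868). Another gene of astrocytes and endothelium, Ednrb, encodes endothelin receptor B. It gave -0.41, 0.02, -0.47 and 0.23 with staggerer RNA in Cy5, and -1.20, -1.66, -1.31 and -0.94 with control RNA in Cy5, for a mean of -0.72 ± 0.24 (adjusted p = 0.0102). In both genes the assignments did not overlap, and nearly all of the ratio came from the arrays with control RNA in Cy5. Both were also called in the Cy5 over Cy3 reading, with the opposite sign, at 0.41 ± 0.22 (adjusted p = 0.00676) for Gja1 and 0.56 ± 0.21 (adjusted p = 0.000884) for Ednrb. The turned call of Ednrb was lost without litter 1 or 3, while that of Gja1 held whichever litter was left out. With the 8 arrays kept apart and the litter as replicate block, neither gene was called in either reading.

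Calb2 encodes calretinin, a calcium-binding protein of higher-order and midline thalamic neurons. It gave -0.03, -0.36, -0.25 and -0.08 with staggerer RNA in Cy5, and -0.58, -0.48, -0.80 and -0.69 with control RNA in Cy5. All 8 arrays were below 0, and the mean was -0.41 ± 0.09 (limma adjusted p = 0.035). Sat1, which starts the breakdown of polyamines, and Rnf182, a ubiquitin ligase gene, stood at -0.47 ± 0.11 (adjusted p = 0.0216) and -0.52 ± 0.15 (adjusted p = 0.0181). Along with Id2 they were the named negative calls that the Cy5 over Cy3 reading did not call. Ado, a thiol dioxygenase gene, had -0.80 ± 0.13 (adjusted p = 0.000849). Btg1, an antiproliferative gene, had -0.47 ± 0.16 (adjusted p = 0.0303), and the kinase gene Lmtk2 had -0.95 ± 0.52 (n = 3; adjusted p = 0.0497). Calb2, Sat1 and Rnf182 were not called without litter 1, 2 or 3, nor Btg1 whichever of the 4 litters was left out. Lmtk2 was not called with robust eBayes, nor without litter 1, in which it has no pair.

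Turned reading, positive ratios. Of the 37 positive calls, 31 have a symbol. Opposite signs in the assignments were seen in 24 of the 37. Of all 50 turned calls, 48 had their larger absolute ratio on the arrays with control RNA in Cy5, against 52.8% of all features.

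Kif24, a kinesin gene of the centriole, had the smallest p. It gave -0.28, 0.28, -0.12 and -0.03 with staggerer RNA in Cy5, and 3.13, 2.56, 2.22 and 2.45 with control RNA in Cy5, for a mean of 1.28 ± 0.18 (limma adjusted p = 0.000143). Cep152, which encodes a scaffold protein of new centrioles, gave 0.03, -0.51, -0.14 and -0.24 with staggerer RNA in Cy5, and 3.31, 3.29, 4.07 and 2.15 with control RNA in Cy5. Its mean was 1.5 ± 0.43 (adjusted p = 0.000849). Both genes therefore had a high ratio in 1 dye assignment and a ratio near 0 in the other. Ptges3, the gene of the Hsp90 co-chaperone p23, had the same shape, with -0.24, -0.34 and -0.41 in litters 1 to 3 with staggerer RNA in Cy5, against 4.44, 4.63 and 7.16 with control RNA in Cy5. Its mean was 2.54 ± 0.72 (n = 3; adjusted p = 0.000849), the largest positive ratio among the named turned calls, and robust eBayes ended its call.

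Cited4, a transcription co-activator gene, had opposite signs. It gave -2.69, -2.23, -2.97 and -2.99 with staggerer RNA in Cy5, and 6.26, 5.37, 5.14 and 5.23 with control RNA in Cy5. Its turned mean was 1.39 ± 0.34 (adjusted p = 0.000849), while the Cy5 over Cy3 reading put staggerer below control at -4.11 ± 0.28 (limma adjusted p = 2.45e-10). Uhrf2, an E3 ligase gene that binds modified DNA, 1700037C18Rik, Arhgef40 and the vomeronasal receptor genes Vmn1r219 and Vmn1r225 had the same form, with turned means of 0.59 to 1.34. Uhrf2 and 1700037C18Rik lost the turned call without litter 1, and Arhgef40 without litter 3 or with robust eBayes.

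Positive calls with like signs in both assignments numbered 13. Tshz1, a zinc finger gene, gave 1.02, 1.19 and 1.56 in litters 1 to 3 with staggerer RNA in Cy5, and 0.36, 0.53 and 1.60 with control RNA in Cy5, for a turned mean of 1.04 ± 0.47 (n = 3; limma adjusted p = 0.0216). Mip, the gene of a lens water channel, had 1.12 ± 0.53 (n = 3; adjusted p = 0.0224). Both were chosen for this paragraph after their values were seen, and robust eBayes ended both calls. Lrrc4c, which encodes the synaptic adhesion protein NGL-1, gave 0.81, 0.43 and -0.18 in litters 2 to 4 with staggerer RNA in Cy5 and 0.55, 0.91 and 1.10 with control RNA in Cy5, for a mean of 0.60 ± 0.12 (n = 3; limma adjusted p = 0.0199). Marcksl1, an actin-binding protein gene of growing neurites, had 0.44 ± 0.06 (n = 4; adjusted p = 0.0209). These 4 were the named positive calls that the Cy5 over Cy3 reading did not call, so they were not called for a difference between the assignments. The call of Lrrc4c was lost without litter 1, in which it has no pair, and that of Marcksl1 without litter 1 or 3.

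**Figure D3:**
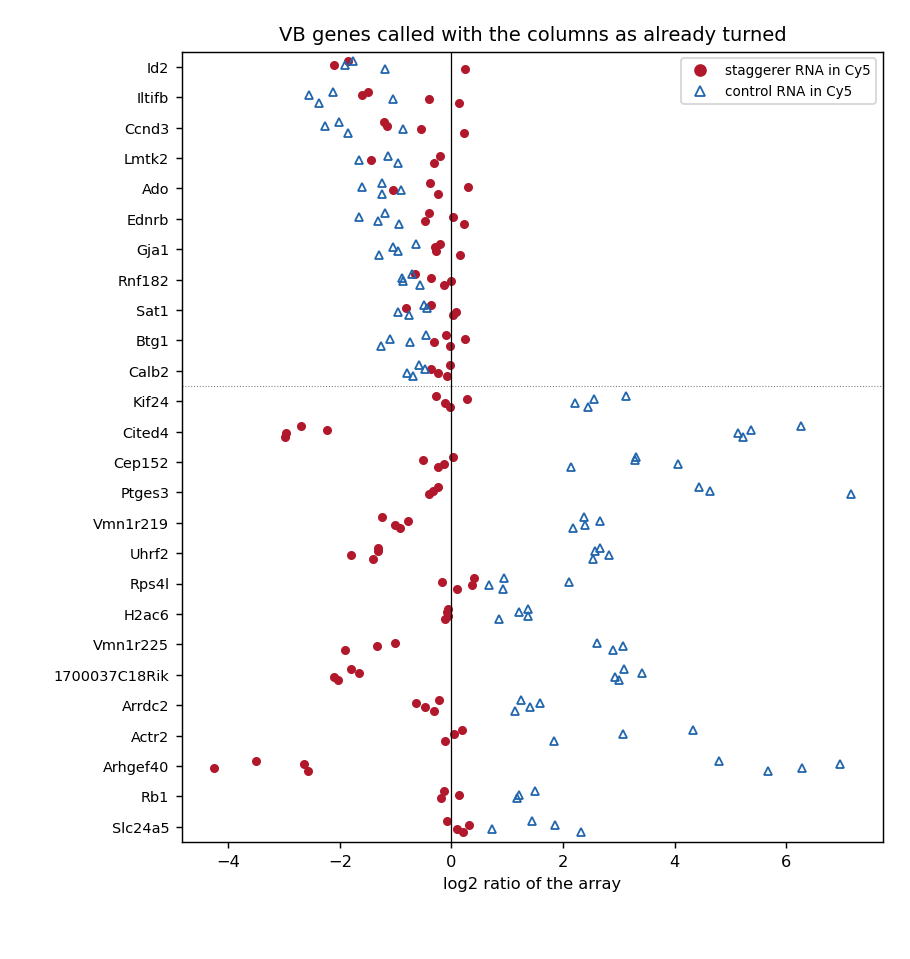
Log2 ratio of each VB array for the 11 named negative calls (above the dotted line) and the 15 positive calls with the smallest p (below it) of the turned reading, with staggerer RNA in Cy5 (filled circles) and control RNA in Cy5 (open triangles); small vertical offsets separate litters. Circles of Kif24, Cep152 and Ptges3 lie near 0 while their triangles lie at 2.15 to 7.16.

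Cy5 over Cy3 reading, staggerer above control. Slc25a1, the mitochondrial citrate carrier gene, had the largest ratio on this side. It gave 1.58, 1.76 and 1.10 in litters 1, 3 and 4 with staggerer RNA in Cy5, and -0.58, -1.01 and -1.50 with control RNA in Cy5, so staggerer was above control by 1.25 ± 0.16 (n = 3; limma adjusted p = 3.72e-06). It was the 1 positive call of this reading beyond 1 in size, against 113 negative ones. Olig1, a transcription factor gene of oligodendrocyte precursors, gave 0.37, 0.48, 0.54 and 0.41 with staggerer RNA in Cy5, and -0.75, -0.78, -0.65 and -0.84 with control RNA in Cy5. Its ratio was 0.60 ± 0.03 (n = 4; adjusted p = 7.75e-05), with the litters almost level. Mmp14, a membrane-bound matrix protease gene, stood at 0.86 ± 0.36 (adjusted p = 0.000342), and Celf4, a neuronal RNA-binding protein gene, at 0.51 ± 0.08 (adjusted p = 0.000364).

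Slc6a4, the serotonin transporter gene that thalamic relay neurons use for a time after birth, gave 0.13, 0.12 and 0.47 in litters 1 to 3 with staggerer RNA in Cy5, and -0.82, -1.22 and -1.14 with control RNA in Cy5. Staggerer was above control by 0.65 ± 0.17 (n = 3; limma adjusted p = 0.000672). Slc18a2, the vesicular monoamine transporter gene, gave 0.01, 0.10, -0.08 and 0.38 with staggerer RNA in Cy5, and -0.55, -0.60, -0.39 and -0.73 with control RNA in Cy5, for 0.34 ± 0.17 (n = 4; adjusted p = 0.0124). The assignments did not overlap for either gene. In the turned reading their ratios were -0.41 and -0.23, and neither was called. Without litter 4, Slc18a2 was not called in the Cy5 over Cy3 reading, and with the arrays of staggerer RNA in Cy5 alone neither gene was. These were the 2 called of 12 tested serotonin uptake, storage and receptor genes in the Cy5 over Cy3 reading (16.7%, against 17.3% of all features).

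Dusp6, a phosphatase gene that answers ERK signalling, gave 0.01, -0.06, -0.24 and 0.37 with staggerer RNA in Cy5, and -1.51, -1.42, -0.98 and -0.58 with control RNA in Cy5. Its ratio was 0.57 ± 0.18 (limma adjusted p = 0.000527), and its turned ratio, not called, was -0.55. As with Gja1 and Ednrb, the arrays with control RNA in Cy5 carried nearly all of it. Sult1a1, a sulfotransferase gene, Ccnc, the cyclin C gene, Fkbp3 and Ufd1 were also among the 15 positive calls with the smallest p, at 0.53, 0.47, 0.69 and 0.54.

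Cy5 over Cy3 reading, staggerer below control. The 15 negative calls with the smallest p had ratios of -4.59 to -1.70. Arhgef40 gave -3.50, -2.64, -4.26 and -2.57 with staggerer RNA in Cy5, and 4.80, 6.96, 6.28 and 5.68 with control RNA in Cy5, for -4.59 ± 0.55 (limma adjusted p = 3.18e-09). Zfp182, a zinc finger gene, gave -2.21, -2.23, -2.10 and -2.53 with staggerer RNA in Cy5, and 2.45, 2.48, 2.18 and 1.68 with control RNA in Cy5. Its ratio was -2.23 ± 0.13 (adjusted p = 2.85e-09), and its turned ratio was -0.04. The others were Cited4, Uhrf2, Arl16, Mrln, Krtap19-3, Fbxw8, 4 uncharacterized genes (1700037C18Rik, 2310009B15Rik, 1700041I07Rik and 2900009J06Rik) and the vomeronasal receptor genes Vmn1r38, Vmn1r73 and Vmn1r219. These receptors belong to the vomeronasal organ, and Krtap19-3 to hair. Of the 103 calls beyond 1 in size with pairs in cortex, 87 had the same sign in the cortex ratio read as Cy5 over Cy3. Of all 2725 calls with pairs there, 1646 had. In the turned reading, 25 of 48 calls with pairs in cortex had the same sign in the turned cortex ratio. The share over all features was not counted, so nothing was read from these counts.

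**Figure D4:**
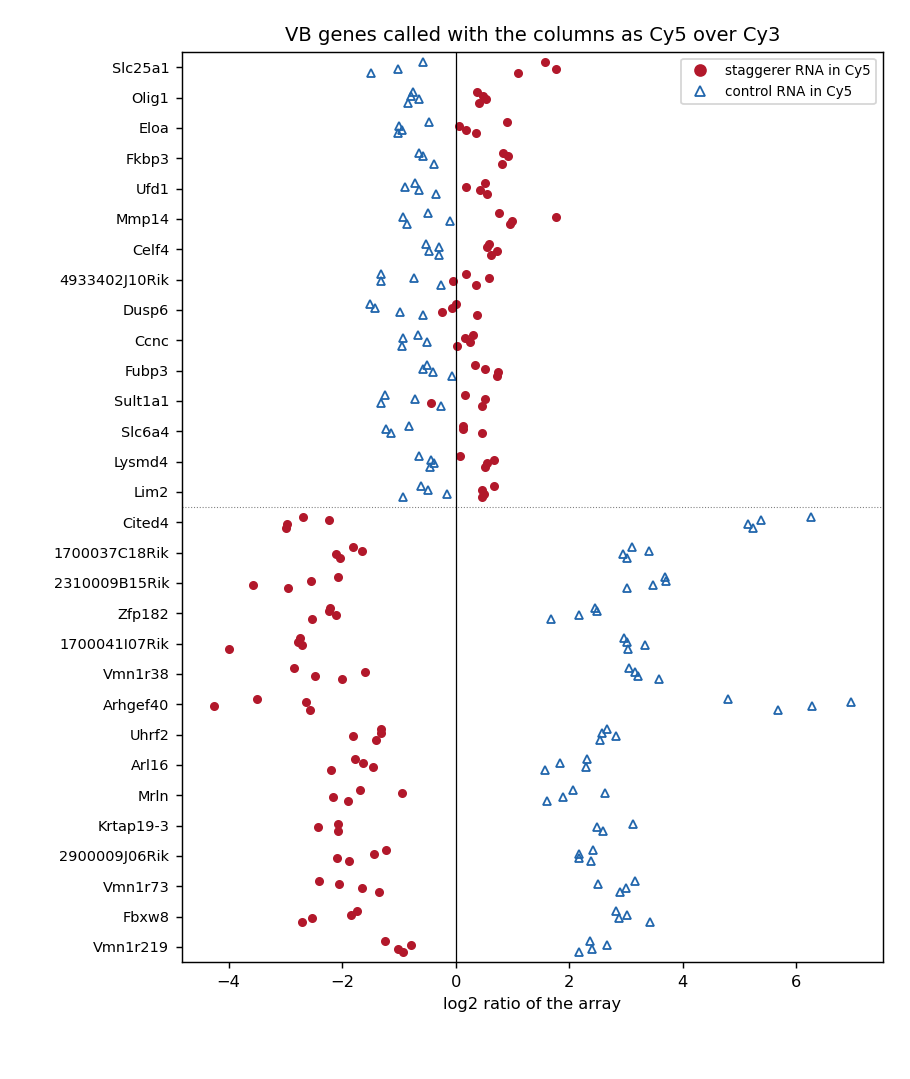
Log2 ratio of each VB array for the 15 positive (above the dotted line) and 15 negative calls with the smallest p of the Cy5 over Cy3 reading, with staggerer RNA in Cy5 (filled circles) and control RNA in Cy5 (open triangles). Array values of the positive calls lie between -1.51 and 1.77, and those of the negative calls reach 6.96 for Arhgef40.

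Thalamic genes were measured by 25 of 37 listed members. In the turned reading 9 were positive and 16 negative with a median of -0.0274, against 0.00567 for all features. Calb2 was the 1 member called (4%). Turned calls made up 0.311% of all features, the share to set beside the turned counts of this and the following lists. Read as Cy5 over Cy3, they had a median of 0.0473, against 0.00283 for all features, and 5 were called (20%, against 17.3% of all features). The 3 with staggerer above control were Nrn1 (0.37), a neuritin gene that responds to activity, Olig3 (0.29), a factor of thalamic progenitors, and Calb2 (0.23), which was not called without litter 1, 3 or 4. The 2 below were Cdh8 (-0.41), a cadherin gene of thalamic and cortical circuits, and Zic1 (-0.39), which was not called without litter 3 or 4.

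Of 16 ROR and clock genes tested, 0 were called in the turned reading and 4 were positive there (median -0.0292). Read as Cy5 over Cy3, 4 were called (25%, against 17.3% of all features). Rora was above control, and 3 genes were below it, of which Nr1d2 lost its call without litter 1 or 4: Bhlhe41 (-0.29 ± 0.04; limma adjusted p = 0.0103) and Nr1d2 (-0.28), which encode clock repressors, and Hlf (-0.30), a clock output factor. Of 11 RORα targets known from Purkinje cells, the turned reading called Id2, and the other (27.3% called) put Itpr1 (0.35), the inositol trisphosphate receptor gene, above control and Pde1b (-0.34) and Homer3 (-0.29) below it.

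Astrocyte and radial glia genes had 2 of 32 members called in the turned reading (6.25%, against 0.311% of all features), Gja1 and Ednrb, both negative. The Cy5 over Cy3 reading called 11 of them (34.4%, against 17.3% of all features), 7 above and 4 below control, with a median of 0.0774. Beside Gja1 and Ednrb, those above were the cystatin gene Cst3 (0.41), Apoe (0.37), which carries lipids, the thyroid hormone deiodinase gene Dio2 (0.34), Vim (0.32), an intermediate filament gene, and Bcan (0.30), a matrix proteoglycan gene. Those below were the metallothionein gene Mt2 (-0.34), the bicarbonate transporter gene Slc4a4 (-0.48), the connexin 30 gene Gjb6 (-0.24) and Fgfr3 (-0.23), so the astrocyte connexin genes had opposite signs. Cst3 was not called without litter 1, Gjb6 without litter 1, 2 or 3, and Fgfr3 whichever of the 4 litters was left out. Slc4a4 was not called with robust eBayes or quantile normalization. Of 20 oligodendrocyte and myelin genes, Olig1 was above and Sox10 (-0.29) below control (10%), and 0 were called in the turned reading.

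Activity-regulated genes had 0 of 30 members called in the turned reading (median -0.0456). The other reading called 10 (33.3%, against 17.3% of all features), 6 above and 4 below control, with a median of 0.00148. Homer1, a postsynaptic scaffold gene, gave -0.30, -0.52, -0.88 and -1.77 with staggerer RNA in Cy5, against 0.72, -0.18, 1.20 and 0.85 with control RNA in Cy5. It was below control at -0.76, and Klf4 (-0.62), Egr2 (-0.35) and Ccn1 (-0.33), all immediate early genes, lay on the same side. Dusp6, Gadd45b (0.42), Nrn1 (0.37), Jun (0.34), Fosl2 (0.30) and Nptx2 (0.26) were above control. Egr2 was not called without litter 1, nor Nptx2 without litter 3. Each has no pair in that litter, so its own values were unchanged there. Calcium-binding neuronal genes were split as evenly, with 10 of 23 called (43.5%, against 17.3%), 5 on each side. The potassium channel partners Kcnip2 (-0.65), Kcnip3 (-0.46) and Kcnip4 (-0.42) and the sensors Rcvrn (-0.52) and Hpcal4 (-0.40) were below control. Camk2g (0.34), Calm2 (0.33), Ncald (0.33), Camk2b (0.30) and Calb2 were above it. In the turned reading, Calb2 was the 1 calcium-binding gene called, with a negative ratio (4.35%, against 0.311% of all features).

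Axon growth and synapse genes were called in the Cy5 over Cy3 reading at shares of 4.35% to 17.6% by list, against 17.3% of all features. Of 36 axon guidance genes (11.1% called), it put Plxna1 (0.33), a semaphorin receptor gene, above control, and Epha8 (-0.73), an ephrin receptor gene, Nrp2 (-0.29) and Unc5d (-0.26) below it, while the turned reading called 0. Among 31 synaptic adhesion genes (16.1%) it put Cbln2 (0.32) above control, and Lrrc4b (-0.70), Cbln1 (-0.36), Nlgn3 (-0.33) and Slitrk3 (-0.34) below. The turned reading called Lrrc4c alone of them. Of 23 barrel-forming signalling genes (4.35%), 1 was called, Fgf10 (0.33), in the Cy5 over Cy3 reading. Of 34 synaptic vesicle and release genes 6 were called there (17.6%), with Syt1 (-0.61), the calcium sensor gene of release, below control. Leaving out 1 litter ended the Cy5 over Cy3 calls of Nrp2 (litter 1 or 4), Unc5d (2, 3 or 4), Cbln1 (1), Nlgn3 (1, 3 or 4) and Fgf10 (1, 2 or 3), and robust eBayes that of Lrrc4b.

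Of 15 glutamate receptor genes, Grm3 (-0.75) was called in the Cy5 over Cy3 reading (6.67%, against 17.3% of all features). Its ratio in the turned reading was larger and not called, at 1.16 ± 1.13 (limma adjusted p = 0.207), with litters that ranged widely: -0.32, 1.39, 0.90 and -0.33 with staggerer RNA in Cy5, and 0.88, 2.69, 3.56 and 0.50 with control RNA in Cy5. Of 18 GABA and glycine receptor genes, 0 were called by limma in either reading. Of 40 ion channel and pump genes, 4 were called in the Cy5 over Cy3 reading (10%) and 0 in the turned one.

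Immature neuron genes had Elavl3 (0.43), Mapt (0.37), Stmn1 (0.51) and Vim above control in the Cy5 over Cy3 reading, 4 of 26 (15.4%, against 17.3% of all features), with 0 below. Elavl3, a neuronal RNA-binding protein gene, gave 0.24, 0.56, 0.17 and 0.58 with staggerer RNA in Cy5, against -0.56, -0.19, -0.70 and -0.46 with control RNA in Cy5. The turned reading called Marcksl1 in this list. Of 31 cell cycle genes, 23 were positive in the Cy5 over Cy3 reading (median 0.121), and 5 were called above and 1 below control (19.4%). Those above were Ccnd1 (0.39), Ccnd3 (0.54), Btg1 (0.42), Mcm7 (0.30) and Cdkn1c (0.64), and the other was the replication helicase gene Mcm4 (-0.52). Stmn1 was not called without litter 1, nor Mcm7 without litter 1 or 4. Cdkn1c had ratios of 1.27, -0.11 and 0.77 in litters 2 to 4. It was not called with robust eBayes or with the litter as replicate block, nor without litter 1, in which it has no pair. In the turned reading, Ccnd3 and Btg1 were the 2 cell cycle genes called, both negative (6.45%, against 0.311% of all features).

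Cytosolic ribosomal protein genes had a median of 0.127 over 59 members in the Cy5 over Cy3 reading, 42 of them positive, with 9 called above and 3 below control. Rpl37a (0.46), Rpl10a (0.44) and Rpl14 (0.51) were among those above, and Rps10 (-0.35), Rps4l (-0.49) and Rpl22l1 (-0.35) were below. Oxidative phosphorylation genes had a median of 0.0966, with 41 of 59 positive, 7 called above and 2 below control, with Cox8c (-0.96), a testis-type subunit gene, among those below. In the turned reading the medians were -0.015 and -0.0285, and Rps4l was the 1 member of either list called. Antioxidant genes had a median of 0.105 in the Cy5 over Cy3 reading and 6 of 21 called, with catalase, Cat (0.45), and Gpx4 (0.36), which protects membrane lipids, above control. Without litter 1, Rps4l lost its call in both readings, and Rpl22l1 lost its call without litter 1 or 3. These 3 lists had 20.3%, 15.3% and 28.6% of members called in the Cy5 over Cy3 reading, against 17.3% of all features.

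Signalling genes of the Notch, BMP, Wnt and hedgehog pathways had 8 of 39 members called in the Cy5 over Cy3 reading (20.5%, against 17.3% of all features). The 2 below control were Smad7 (-0.97) and Smad6 (-0.45), which encode inhibitors of the BMP and TGF-beta pathways. The 6 above were Jag2 (0.49), a Notch ligand gene, the ligand gene Bmp2 (0.33), its receptor gene Bmpr2 (0.27), the mediator Smad1 (0.32), Wnt3 (0.25) and Axin2 (0.23), a Wnt target. The turned reading called Id2 alone in this list. Of 19 cholesterol synthesis and transport genes, Idi1 (0.49) and Pmvk (0.31), which encode enzymes of isoprenoid synthesis, and the exporter gene Abca1 (0.35) were above control, with 0 below (15.8% called). Thyroid hormone and glucocorticoid genes, 21 tested (19% called), had Sult1a1 (0.53) and Dio2 (0.34) above control, and Arrdc2 (-0.88) and the thyroid hormone receptor gene Thrb (-0.27) below. Axin2 was not called whichever of the 4 litters was left out, nor Wnt3 and Bmpr2 without litter 1, 3 or 4. Thrb was not called without litter 1 or 3, nor Smad1 without litter 3, in which Smad1 has no pair. In the turned reading, Arrdc2 was the 1 thyroid hormone and glucocorticoid gene called, with a positive ratio (4.76%, against 0.311% of all features).

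Of 15 gap junction genes, Gja1 and Gja6 (0.31) were above control in the Cy5 over Cy3 reading, and Gjb5 (-0.44) and Gjb6 were below. Of 20 centriole and cilium genes, Kif24, Cep152 and Tcte3 were called in both readings. They were positive in the turned one (15%, against 0.311% of all features) and below control in the other. Rpgr (0.25), a gene of the photoreceptor cilium, was above control in the Cy5 over Cy3 reading. Of 18 GABAergic neuron genes the Cy5 over Cy3 reading put Calb2 above control, and Gata2 (-0.50) and Zic1, transcription factor genes, below. Of 14 RGS genes, which encode brakes on G protein signalling, Rgs8 (-0.53) was below control. Of 15 genes of MHC class I and the interferon response, B2m (0.25), the light chain gene of MHC class I, was above, but its call was lost whichever of the 4 litters was left out and in each dye assignment alone. In the Cy5 over Cy3 reading Rpgr was not called without litter 1, 2 or 4, nor Gjb6 without litter 1, 2 or 3, and the turned call of Tcte3 was lost without litter 1, 2 or 3. The shares called in these 5 lists were 26.7%, 20%, 16.7%, 7.14% and 6.67% in the Cy5 over Cy3 reading, against 17.3% of all features. The turned reading also called Gja1 among the gap junction genes (6.67%) and Calb2 among the GABAergic neuron genes (5.56%). Both were negative, and the share of all features was 0.311%.

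Among the lists without a turned call in limma, members with an unadjusted p under 0.05 in that reading were also counted, against 10.2% of all features (32.5% in the Cy5 over Cy3 reading). They numbered 1 of 16 for ROR and clock genes, 2 of 12 for serotonin genes, 0 of 23 for barrel-forming signals, 5 of 36 for axon guidance and 6 of 30 for activity-regulated genes. They were 4 of 34 for vesicle and release genes, 1 of 15 for glutamate receptors, 2 of 18 for GABA and glycine receptors (5 in the Cy5 over Cy3 reading), 1 of 40 for ion channels and pumps, 2 of 20 for oligodendrocyte genes and 1 of 21 for antioxidant genes. For cells and regions near the VB they were 1 of 27 for vascular cells, 3 of 20 for choroid plexus, ependyma and meninges and 0 of 10 for blood cells. Microglia and complement had 2 of 18 and neighbouring regions 2 of 20. RGS genes had 1 of 14, cholesterol synthesis and transport genes 3 of 19 and sex-linked genes 1 of 9. MHC and interferon genes had 0 of 15 and oxidative phosphorylation genes 6 of 59.

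Markers of other cells and tissues were also called in the Cy5 over Cy3 reading, and their part in the results was not tested. Of 27 vascular cell genes 5 were above and 2 below control (median 0.0779), of 20 choroid plexus, ependyma and meninges genes 2 above and 3 below (0.0412), of 10 blood cell genes 2 above and 0 below (-0.0225), and of 18 microglia and complement genes 1 above and 3 below (-0.0214). Of 20 genes of neighbouring brain regions 2 were above and 1 below (0.0314). These were 25.9%, 25%, 20%, 22.2% and 15% of the members, against 17.3% of all features, and the turned reading called 0 members of the 5 lists. Of 9 sex-linked genes tested, 3 were called in the Cy5 over Cy3 reading (33.3%, against 17.3% of all features). Sry (0.53) and Uty (0.24), which lie on the Y chromosome, were above control, and Xist (-0.32), of the inactive X, was below. Their turned ratios were 0.01, -0.01 and 0.01, not called. Uty was not called without litter 1, 3 or 4, and neither Uty nor Xist was called in either dye assignment alone. The sex of the pups is not given in the labels, and a difference in sex was not tested.

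Receptor genes of the nose and tongue were counted as well, and their level in VB was not checked. Of 654 nose and tongue receptor genes tested, 83 were called in the Cy5 over Cy3 reading (12.7%, against 17.3% of all features), 48 above and 35 below control. The turned reading called 3 (0.459%, against 0.311% of all features), all positive.

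**Figure D5:**
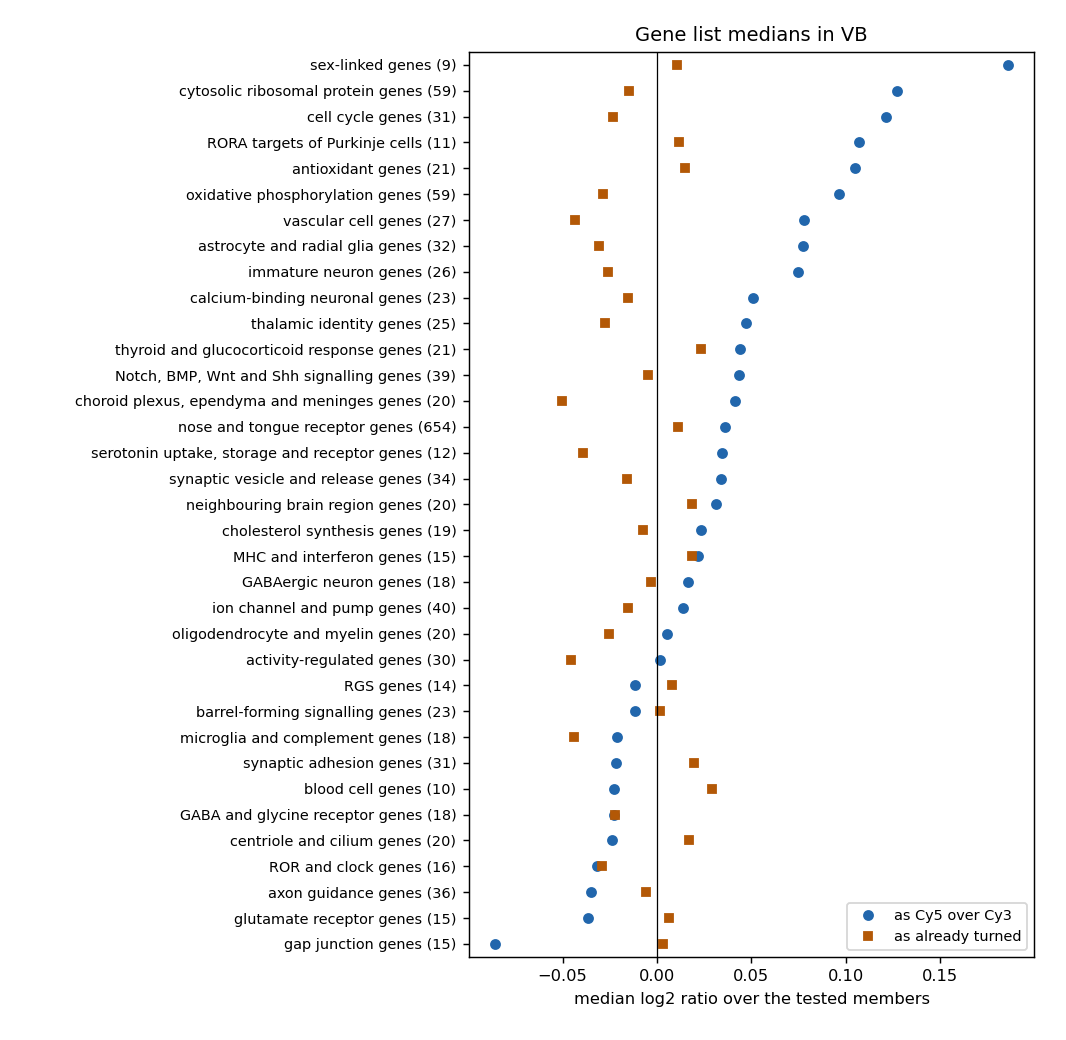
Median log2 ratio of the tested members of each gene list in VB, read as Cy5 over Cy3 (circles) and as already turned (squares), with the number of members in brackets. Turned medians lie between -0.0504 and 0.0293, and those read as Cy5 over Cy3 between -0.0859 for gap junction genes and 0.186 for 9 sex-linked genes.

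The last comparison asked where the VB calls differed from cortex, as the mean VB ratio minus the mean cortex ratio in a limma fit of 12178 features. The litter values of the tissues were not paired by litter in this fit, which gave all adjusted p of this comparison. A fit with the litter as block was an alternative. Cortex RNA was labelled by another method than VB RNA, which was amplified by PCR, so tissue and labelling cannot be told apart. In the turned reading 12 features were called (0.0985%), among them 6 of the 36 VB calls that could be tested. The Cy5 over Cy3 reading called 455 (3.74%), among them 342 of 2026 VB calls. In both readings the VB calls were picked by VB values that also enter this difference. That choice by itself raises their share, so nothing was read from it. Leaving out a litter left at most 1 call in the turned reading and 117 to 230 in the other.

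In the turned reading the named genes with a difference were positive in VB. Ptges3 was at 2.54 in VB and -0.19 in cortex, a difference of 2.73 (limma adjusted p = 0.000595). Kif24 was at 1.28 in VB and -1.06 in cortex (difference 2.34, adjusted p = 0.000595), and Cep152 at 1.5 in VB and -0.27 in cortex (1.77, adjusted p = 0.00308). The histone gene H3c14 and Trim46, a gene of the axon initial segment, differed by 1.03 (adjusted p = 0.0147) and 1.02 (adjusted p = 0.0208). Gja1 was negative in both tissues, at -0.57 in VB and -0.93 in cortex, and its difference was not called (0.36, adjusted p = 0.483). Iltifb, at -1.43 in VB and -0.07 in cortex, Ccnd3, at -1.21 and 0.13, and Id2, at -1.43 and -0.02, did not pass the test of the difference (adjusted p of 0.0595, 0.0773 and 0.158). Ednrb was at -0.72 in VB and -0.60 in cortex (adjusted p = 0.934).

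Read as Cy5 over Cy3, Slc6a4 was above control in VB at 0.65 and at -0.22 in cortex, a difference of 0.88 (limma adjusted p = 0.00564). Mapt, the gene of the microtubule protein tau, was at 0.37 in VB and -0.34 in cortex (0.71, adjusted p = 0.00214), Cdh8 at -0.41 and 0.19 (-0.59, adjusted p = 0.0328), and the potassium channel gene Kcnk3 at -0.38 and 0.94 (-1.32, adjusted p = 0.000144). Gja1 was at 0.41 in VB and -0.22 in cortex (0.63, adjusted p = 0.0163). Rora, at 0.42 in VB and -0.13 in cortex, did not pass (0.56, adjusted p = 0.0646). Cited4 and Uhrf2 were further below control in cortex than in VB, at -6.35 and -3.30 in cortex against -4.11 and -2.06 in VB. Ptges3 (-2.64, limma adjusted p = 5.32e-05), Cep152 (-2.18, adjusted p = 3.12e-05) and H3c14 (-1.22, adjusted p = 0.000259) differed in this reading too. Kif24 and Trim46 did not (adjusted p of 0.295 and 0.733). Stmn1 (2.42) and Arl16 (-1.71) were also called, both at an adjusted p of 3.12e-05. The genes named here are a part of those called.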

How the data were processed

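Per the labels' protocols, VB and cortex were cut from vibratome slices, and total RNA was extracted per tissue sample with DNase treatment. RNA of the VB went through template-switching PCR before Klenow labelling with dye-dUTP, while cortex RNA was labelled by aminoallyl coupling. The deposited values are the authors' log ratios, taken as log2; base, numerator, scanner, background correction, normalization and spot filter are unknown here. Each array's median lay near 0.

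Probes were named through the platform annotation and RefSeq. A pair counted where both arrays had a value. Probes of a symbol were averaged, and features with at least 3 litters were tested for a mean of 0 with limma 3.58.1 (lmFit, eBayes, two-sided) in R 4.3.3, Benjamini-Hochberg over all 16066 features, called under 0.05. The fit was tested on simulated data. Samples of a litter may be of 1 or several pups, so p-values measure the spread between litters only as labelled. Named were, per reading, up to 15 calls in each direction with the smallest p, Rora, list members called and genes called in both; Tshz1 and Mip were added after their values were seen. The members and the gene lists were chosen with earlier results of these data known. Lists are described by counts and medians, with no set test. Litter numbers pair the arrays, per the labels, and the swapped pair was averaged to 1 replicate. Alternatives were other normalizations, filters, probe handling, robust eBayes, a litter block, each litter left out and each dye assignment alone.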

Additional observations from a re-analysis of the deposited data

Results flagged for a closer look

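Litter values of the named genes with 4 litters were examined for 1 litter far from the other 3, in 145 groups of 4 values; chance alone marks about 1 group in 20, and 9 were marked. In the turned reading Ednrb stood at -0.36 in litter 4, with the others at -0.89 to -0.81. In the Cy5 over Cy3 reading 5 marked litters lay nearer to 0 than the others. Calb2 was at 0.06 in litter 2 (others 0.27 to 0.30), Cst3 at 0.07 in litter 4 (0.50 to 0.56), Nr1d2 at -0.12 in litter 3 (-0.35 to -0.32), Neurod6 at 0.05 in litter 4 (0.26 to 0.30) and Rgs8 at -0.23 in litter 3 (-0.66 to -0.59). Fgf10 stood at 0.76 in litter 2, above 0.17 to 0.22 in the others. Uhrf2 stood at -2.32 in litter 3, with the others at -1.99 to -1.95, and 1700037C18Rik at -2.45 in litter 1, with the others at -2.53 to -2.52.

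Turned calls of the VB whose ratio differed from cortex, as VB minus cortex in limma, were Ptges3 (2.73), Kif24 (2.34), Cep152 (1.77), H3c14 (1.03) and Trim46 (1.02).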

How the results depend on the processing

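The 50 turned calls became 19 with quantile normalization, 18 of them shared, and 1017 and 1100 with the arrays of staggerer RNA in Cy5 alone and control RNA in Cy5 alone. With all 8 arrays and the litter as replicate block they became 0 in limma (1607 at an unadjusted p under 0.05), since the difference between the dye assignments then counts as spread. With a dye term added, chosen after seeing the data, there were 70. Leaving out a litter gave 11 (litter 1), 31 (litter 2), 19 (litter 3) and 95 (litter 4). Other settings gave 39 to 65. The 2784 Cy5 over Cy3 calls became 1698 with values in all 4 litters, where 8694 features were tested, 1017 and 1100 with a single dye assignment, and 1056 to 1640 without a litter. The replicate block gave 3208, and other settings gave 2652 to 3126. The 12 calls of VB minus cortex in the turned reading became 16 with the litter as replicate block, 14 with quantile normalization and 0 to 1 without a litter; the 455 of the other reading became 405, 422 and 117 to 230. Of the 42 named turned calls, quantile normalization ended 26 and robust eBayes 11, and leaving out litter 1, 2, 3 or 4 ended 25, 8, 16 and 4. Fewer litters and features remained in the fits without a litter. The cause of the losses was not tested. Of 194 named Cy5 over Cy3 calls, 52 were lost without at least 1 litter, and 6 of these whichever of the 4 was left out. Without litter 1, 2, 3 or 4, 90, 122, 101 and 114 held and 43, 18, 29 and 25 were lost. The rest could not be tested. In both readings a call on 3 litters was not tested without 1 of those litters, and is not counted as lost.

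With the arrays of staggerer RNA in Cy5 alone, 22 turned ratios changed sign: Rora 0.29, Kif24 -0.04, Cited4 -2.72, Cep152 -0.21, Ptges3 -0.33, Vmn1r219 -0.99, Uhrf2 -1.47, H2ac6 -0.08, Vmn1r225 -1.41, 1700037C18Rik -1.90, Arrdc2 -0.41, Arhgef40 -3.24, Rb1 -0.06, Tcte3 -0.97, Olfr530 -0.47, Mro -1.32, Zbtb8b -0.46, Ttc23 -0.49, Trim46 -0.66, H3c14 -0.35, Klra1 -0.20 and Fam83g -0.04. So did 17 Cy5 over Cy3 ratios: Nrn1 -0.05, Calb2 -0.18, Ednrb -0.16, Gja1 -0.16, Grm3 0.41, Ccnd3 -0.67, Btg1 -0.05, Cdkn1c -0.03, Rps4l 0.17, Actr2 0.04, Slc24a5 0.13, Iqsec1 0.07, Ap2a2 0.02, Iltifb -0.84, Ado -0.34, Lmtk2 -0.65 and Tor1aip1 0.15. With control RNA in Cy5 alone, Cbln2 had -0.27. By construction these genes had like signs in both assignments in the Cy5 over Cy3 reading, and unlike signs in the turned one. Of 35 list medians, 34 in the Cy5 over Cy3 reading and 35 in the turned one moved by less than the SD between litters under quantile normalization, but leaving out a litter moved 5 to 9 and 2 to 6 of them by more. Signal over background is unknown, so low signal could not be filtered.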
